A study of Mus musculus with 8 samples.

Results

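The genes described here are 7 matrix metalloproteases (Mmp2, Mmp8, Mmp9, Mmp12, Mmp13, Mmp14 and Mmp19) and 3 of their tissue inhibitors (Timp1, Timp2 and Timp3), taken by symbol from count tables of mouse bone marrow cells. These 10 genes were found among 47643 gene identifiers in the table of macrophages and among 52458 genes in the table of plasma cells. RNA was sequenced from macrophages sorted as F4/80 high and CD11b low from the marrow of wild-type B6 mice. Mice bearing tumors had received Vk*MYC myeloma cells that express GFP and were purified on CD138, by injection into the tibia. Tumor-associated macrophages (TAM) that were GFP+ are labelled as in contact with myeloma (2 libraries), and GFP- macrophages as not in contact (2 libraries). Macrophages of naive mice served as controls (2 libraries). In addition, 2 plasma cell libraries were sequenced in the series, which sorted both Vk*MYC myeloma cells and polyclonal plasma cells of naive mice. The labels do not tie either plasma cell library to one of these sources, so each is given by its own value. All mice were wild type and B6, and no treatment was given. The labels number the mice of the TAM groups and do not give ages, nor whether marrow was pooled. In Vk*MYC mice the MYC transgene is switched on in germinal center B cells, and the model studied here is a transplant of such a tumor into a host whose own marrow cells remain.

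Matrix metalloproteases are zinc-dependent enzymes that cut collagens, other matrix proteins, cytokines and surface receptors. Most are secreted as inactive proenzymes, while Mmp14 is anchored in the plasma membrane and activates proMmp2 in a complex that contains Timp2. Tissue inhibitors of metalloproteases block the active site and are present beside the enzymes, so the balance between enzyme and inhibitor sets how much matrix is cut. In bone marrow, Mmp8 and Mmp9 are stored in granules of the neutrophil lineage, Mmp9 and Mmp14 are also made by osteoclasts, and Mmp13 is the main interstitial collagenase of rodent bone.

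The collagenases Mmp8 and Mmp13 and the elastase Mmp12 are neighbors on chromosome 9, in the same orientation, and in the macrophage libraries Mmp8 ran apart from Mmp12 and Mmp13, so the sequence before the start of Mmp13 and Mmp8 is shown with that of Mmp14. Promoters are from RefSeq (GRCm38.p6), which held 7 of the 10 genes. Each line gives the 120 bases just before the start site on the plus strand of the build, with capitals for the motifs named next.
Mmp13, chr9:7272394-7272513: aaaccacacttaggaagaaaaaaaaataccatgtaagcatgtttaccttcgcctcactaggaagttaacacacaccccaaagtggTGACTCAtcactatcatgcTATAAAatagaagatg
Mmp8, chr9:7558309-7558428: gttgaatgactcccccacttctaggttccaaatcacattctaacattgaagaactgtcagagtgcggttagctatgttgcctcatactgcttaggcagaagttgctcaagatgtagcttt
Mmp14, chr14:54431478-54431597: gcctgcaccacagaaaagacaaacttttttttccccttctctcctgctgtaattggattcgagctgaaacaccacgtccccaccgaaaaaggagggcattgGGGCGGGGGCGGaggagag

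A total of 4 motifs was searched on both strands over the 300 bases of each RefSeq promoter, from 250 before to 50 after the start site. They were the AP-1 site TGANTCA (the same on both strands), the TATA box TATAAA, the GC box GGGCGG and the PU.1 core GAGGAA, and their matches do not share bases with one another in these promoters. The Mmp13 promoter held TGACTCA from position -35 and TATAAA from -16, and no GC box or PU.1 core. In the Mmp14 promoter the GC box was found from -19 and from -13, with no match to the other motifs. The Mmp8 window printed above held no whole match: its TATAAA match, on the minus strand, began at -3 and ran past the start site, and a PU.1 core lay farther out at -219. Mmp12 has an AP-1 match at -44 of the second of its 2 start sites in the table and none at the first. The second also had TATAAA from 5, and the first a PU.1 core at -86 on the minus strand. Single GC boxes lay at -8 in Timp1 and at -37 in Timp2, and Timp3 had them at -15 and 14. Of all 32851 promoters of the same length in the table, 7.81% held the AP-1 letters, 13.6% the TATA letters, 35.7% the GC box and 28.3% the PU.1 core. A match describes letters and shows no binding.

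**Figure D1:**
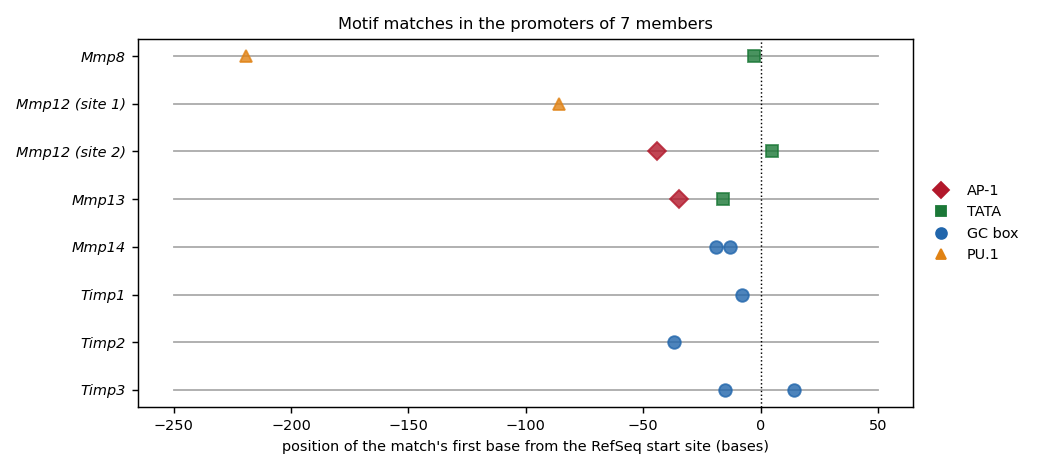
Positions of motif matches in the RefSeq promoters of 7 of the 10 genes (x axis, bases from the start site, which is the dotted line; y axis, promoter; diamonds AP-1, squares TATA box, circles GC box, triangles PU.1 core). AP-1 matches lie at -35 in Mmp13 and at -44 in the second Mmp12 promoter, and GC boxes in the promoters of Mmp14 and the 3 inhibitors.

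Library totals were 28887725 to 46873056 counts in the macrophages and 81792139 and 38343783 in the plasma cells. A count of 3, taken as the limit that a count of 0 allows, stood for 0.0640 to 0.104 CPM (counts per 1000000 counts of the library) in the macrophage libraries, for counting error only. The macrophage genes Adgre1 (F4/80) and Csf1r were present in all 6 macrophage libraries at 519 to 1223 and 1120 to 4368 CPM. All 6 also held neutrophil transcripts, with 10 of 10 markers detected and a summed level of 47866 and 74580 CPM in naive, 9147 and 17824 in not-in-contact and 50344 and 28227 in in-contact libraries. Not-in-contact library 2 stood apart in plasma cell transcripts, with 9.13% of its counts in immunoglobulin segments against 0.166 to 0.632% in the other macrophage libraries. It also held 137 CPM summed over 11 stromal and osteoblast markers, 4 of them at 0, against 11.2 to 19.9 elsewhere. Alpl (50.1 CPM) and Cxcl12 (48.4 CPM) made up most of that sum, and Pdgfrb was at 3.51 CPM against 17.6 CPM in in-contact library 2. Alpl was also at 36.4 and 40.9 CPM in the plasma cell libraries, so the sum is not specific to stromal cells. Not-in-contact library 1 held 1437 CPM summed over 8 osteoclast markers against 311 to 721 elsewhere. Acp5 made up most of that sum at 1168 CPM, and Ctsk was at 47.8 CPM. Nfatc1, at 188 CPM there, was higher in both naive and both in-contact libraries. Ocstamp was at 14.7 CPM there and 28.3 CPM in in-contact library 1, and Calcr was at 0 in all 6. The libraries labelled mouse 2 in the TAM groups did not match as 1 animal: Xist was at 0 and Ddx3y at 88.4 CPM in contact, and at 40.4 and 0.258 CPM not in contact. In-contact library 2 was the only macrophage library with this pattern. The others had Xist at 17.5 to 53.8 CPM and Ddx3y at 0.258 CPM or less. Comparisons with TAM in contact thus also set a group of mixed pattern against groups of 1 pattern, and the part of sex was not tested. In bulk RNA, fewer cells of a type and less RNA per cell cannot be told apart.

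With 2 libraries in each group, edgeR's quasi-likelihood test at a Benjamini-Hochberg adjusted p under 0.05 called 0 of the 9 genes that passed the filter on low counts in any comparison; Timp1 did not pass it. At an unadjusted p under 0.05 the test had 6 of 9 for TAM in contact against not in contact, 2 of 9 for in contact against naive and 7 of 9 for not in contact against naive. Over all 15522 genes tested edgeR called 0% (0 genes, 2653 at an unadjusted p under 0.05), 0.219% (34 genes, 2270 at an unadjusted p under 0.05) and 0% (0 genes, 2354 at an unadjusted p under 0.05) in these comparisons. DESeq2, the tool named in the submitters' processing notes, called 6 (all lower in contact), 1 (lower in contact) and 7 (5 higher and 2 lower not in contact), beside 10.4%, 7.92% and 8.18% of all genes tested. Groups did not overlap in CPM for 7, 6 and 7 of the 9, beside 46.6%, 59.7% and 45.5% of all genes. The 3 comparisons share libraries and so are not independent of one another. Nothing says that the 2 libraries of a group come from separate cell preparations beyond the mouse numbers, so the p-values cover only how these libraries vary, which may in part be technical.

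The size of the differences shifted with the not-in-contact libraries. Without not-in-contact library 1, Mmp2 and Timp3 were at -2.67 and -4.34 on the log2 scale in contact against not in contact. Not in contact against naive, they were at 2.54 and 5.86. Without not-in-contact library 2, the values not in contact against naive were 3.18 for Mmp2, 4.48 for Timp3, -4.63 for Mmp8 and -4.20 for Mmp9. In these fits the lone library of a group is assumed to vary like the others. The number of calls over all genes also changed with these libraries, so only sizes are given here. Without in-contact library 2, whose mouse number conflicts with its sex-linked transcripts, Mmp2 and Timp3 were at -2.91 and -3.51 in contact against not in contact.

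**Figure D2:**
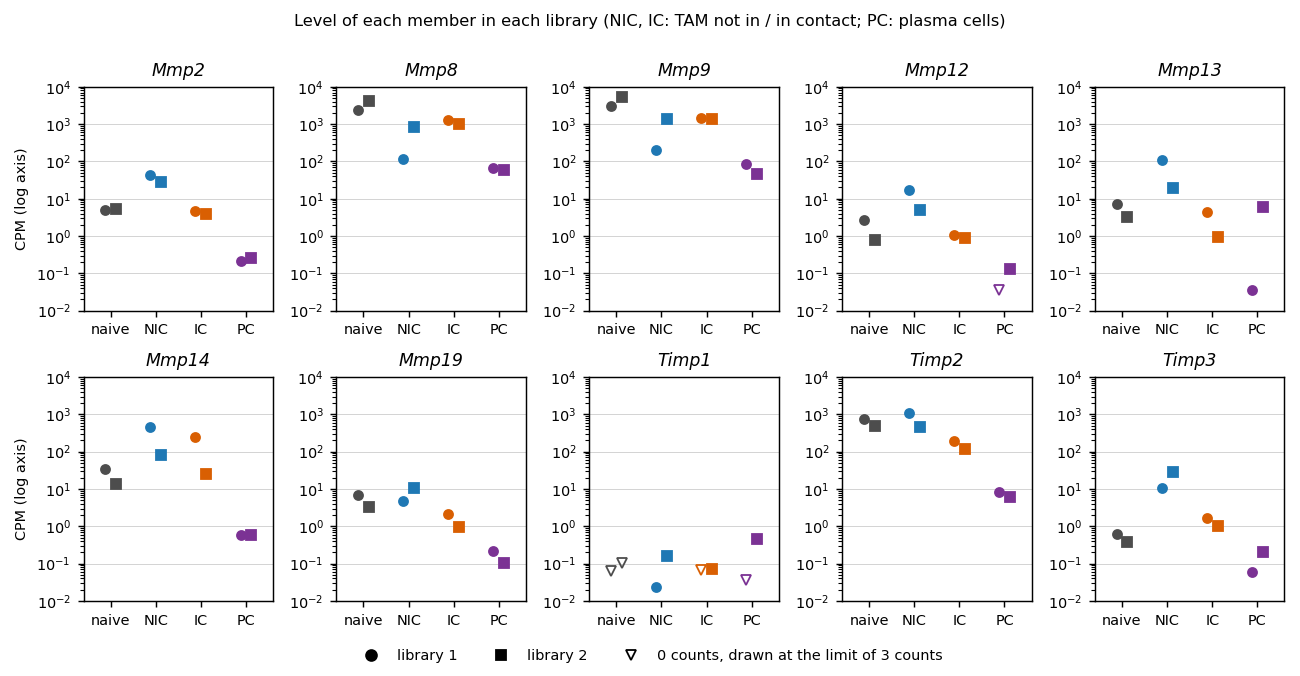
Level of each of the 10 genes in each library (y axis, CPM on a log axis; x axis, group; circles library 1, squares library 2; open triangles, libraries with 0 counts drawn at the limit of 3 counts). Both not-in-contact libraries lie above the other macrophage libraries for Mmp2, Mmp12, Mmp13 and Timp3, and both naive libraries above the others for Mmp8 and Mmp9.

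The gelatinase Mmp2, which cuts denatured collagen and basement membrane, was higher in TAM not in contact than in the other macrophages. It was at 41.9 and 28.6 CPM not in contact, 4.76 and 3.89 CPM in contact and 5.08 and 5.30 CPM in naive libraries. The not-in-contact libraries did not overlap with the other 4, while in-contact and naive libraries lay close together. Mmp2 was 8.09-fold lower in contact than not in contact (log2 -3.02 ± 0.34 SE, edgeR adjusted p = 0.0679; DESeq2 adjusted p = 1.13e-13). Against naive, the level not in contact was 7.52-fold higher (log2 2.91 ± 0.34, edgeR adjusted p = 0.183; DESeq2 adjusted p = 8.08e-12). In-contact and naive macrophages differed by -0.11 ± 0.32 on the log2 scale (edgeR adjusted p = 0.897), and with library sizes scaled by TMM their levels overlapped, at 4.85 and 4.15 against 4.75 and 4.94 CPM. The gene lies at chr8:92827291-92853420 on the plus strand (GRCm38) and overlaps no other gene of the annotation. The stromal markers that were high in not-in-contact library 2 were not high in library 1 (137 and 11.2 CPM), where Mmp2 had its highest level; their part in Mmp2 was not tested.

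Mmp9, the other gelatinase and a granule enzyme of neutrophils, ran the other way. Its level was 3076 and 5205 CPM in naive, 198 and 1359 CPM in not-in-contact and 1446 and 1336 CPM in in-contact libraries. Both naive libraries were above all TAM libraries, and the not-in-contact libraries differed 6.86-fold from each other, with library 2 inside the range of the in-contact libraries. Mmp9 differed by -2.29 ± 0.88 on the log2 scale not in contact against naive (edgeR adjusted p = 0.309; DESeq2 adjusted p = 0.0444). In contact against naive the difference was -1.42 ± 0.86 (edgeR adjusted p = 0.480) and in contact against not in contact 0.88 ± 0.85 (edgeR adjusted p = 0.642).

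The neutrophil collagenase Mmp8, which cuts fibrillar collagen and is stored in specific granules, was at 2435 and 4032 CPM in naive libraries. TAM not in contact had 115 and 820 CPM, and TAM in contact 1265 and 1019 CPM. The 3 groups did not overlap, in the order naive, in contact, not in contact, but the 7.11-fold gap between the not-in-contact libraries was larger than that between the nearest libraries of these groups. Mmp8 differed by -2.67 ± 0.90 on the log2 scale not in contact against naive (edgeR adjusted p = 0.267; DESeq2 adjusted p = 0.0151). The differences were -1.35 ± 0.86 in contact against naive and 1.33 ± 0.86 in contact against not in contact (edgeR adjusted p = 0.498 and 0.474).

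Mmp8 and Mmp9 kept a narrow ratio to each other. Per kilobase of exon, which allows levels of different genes to be compared, Mmp9 stood to Mmp8 at 0.865 and 0.885 in naive, 1.18 and 1.14 in not-in-contact and 0.783 and 0.898 in in-contact libraries. Across the 6 macrophage libraries their log2 CPM had a Pearson r of 0.995, a description over libraries that share their groups. The neutrophil marker sum was lowest in the not-in-contact libraries and did not keep a fixed ratio to either gene. Per 1000 CPM of the neutrophil marker sum there were 50.9 and 54.1 CPM of Mmp8 in naive, 12.6 and 46.0 in not-in-contact and 25.1 and 36.1 in in-contact libraries. For Mmp9 the same ratio was 64.3 and 69.8 in naive, 21.7 and 76.2 not in contact and 28.7 and 47.3 in contact. Lcn2, whose product binds Mmp9 in neutrophil granules, stayed between 43.3 and 55.5 CPM per 1000 CPM of the marker sum in the 6 libraries. For Mmp25, another protease of neutrophils, this ratio was 4.70 and 3.22 in naive, 2.02 and 5.28 in not-in-contact and 1.17 and 1.38 in in-contact libraries. Both naive libraries were above both in-contact libraries in the ratio for Mmp8, Mmp9 and Mmp25. Not-in-contact library 1 was the lowest of the 6 for Mmp8 and Mmp9. Ltf and Ngp made up most of the marker sum, at 17080 and 17041 of 47866 CPM in naive library 1. These ratios thus depend largely on those markers. Set against Cxcr2 alone (232 and 371 CPM in naive, 81.9 and 71.1 CPM in contact), Mmp8 and Mmp9 were higher in contact than in naive libraries. Set against Retnlg alone (763 and 1159 CPM in naive, 551 and 528 CPM in contact), they were lower. The part of neutrophil RNA in the levels of Mmp8 and Mmp9 was not tested.

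**Figure D3:**
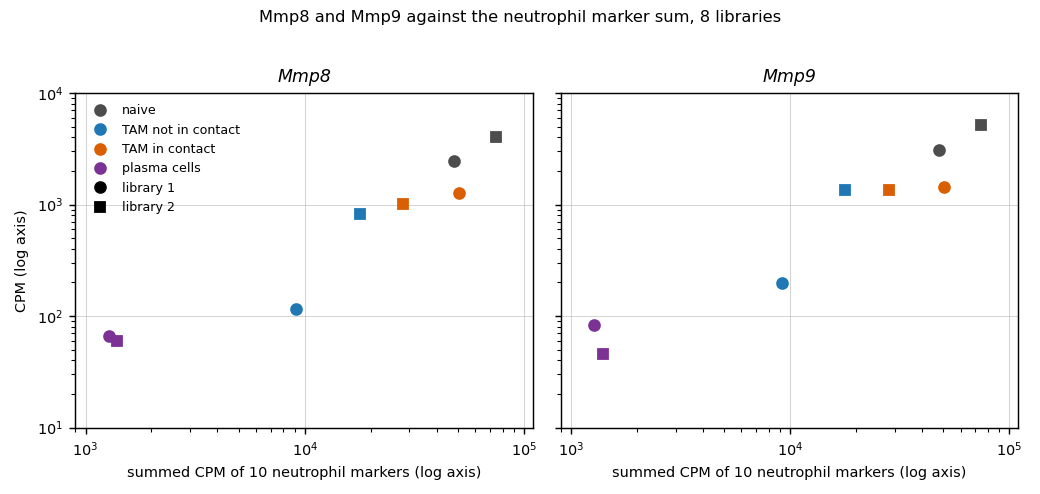
Mmp8 (left) and Mmp9 (right) in CPM (y axis, log) against the summed CPM of 10 neutrophil markers (x axis, log) in 8 libraries, colored by group, with circles for library 1 and squares for library 2. Both genes are highest in the naive libraries. In-contact library 1 has a marker sum of 50344 CPM, between the naive sums of 47866 and 74580 CPM, with lower Mmp8 and Mmp9. Its markers differ in direction against naive library 1: Ngp, Mpo, Elane, Camp and S100a8 are higher, and Ltf, S100a9, Cxcr2, Ly6g and Retnlg lower.

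Mmp13, a collagenase that cuts fibrillar collagen, had its highest levels in TAM not in contact. It was at 107 and 19.6 CPM there, 4.29 and 0.949 CPM in contact and 7.30 and 3.18 CPM in naive libraries. Both not-in-contact libraries were above the other 4, whose groups overlapped. Mmp13 was 24.4-fold lower in contact than not in contact (log2 -4.61 ± 1.13, edgeR adjusted p = 0.185; DESeq2 adjusted p = 7.03e-05). It was 13.4-fold higher not in contact than in naive macrophages (log2 3.74 ± 1.08, edgeR adjusted p = 0.240; DESeq2 adjusted p = 0.00315). In contact against naive the difference was -0.87 ± 0.99 (edgeR adjusted p = 0.712). The gene lies at chr9:7272514-7283331, plus strand. Not-in-contact library 1, with the highest Mmp13, was also the one with the highest osteoclast marker sum, made up mostly of Acp5. Library 2 was the one with the highest stromal and osteoblast sum. The part of these cells in Mmp13 was not tested.

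The macrophage elastase Mmp12, which cuts elastin, followed Mmp13 at lower levels. Not in contact it was at 17.7 and 4.96 CPM, in contact at 1.08 and 0.878 CPM and in naive libraries at 2.71 and 0.762 CPM. Here too both not-in-contact libraries were above the other 4, and in-contact and naive libraries overlapped. The difference in contact against not in contact was -3.53 ± 0.92 on the log2 scale (edgeR adjusted p = 0.193; DESeq2 adjusted p = 0.00173). It was 2.85 ± 0.89 not in contact against naive (edgeR adjusted p = 0.250; DESeq2 adjusted p = 0.0234), and in contact against naive -0.68 ± 0.85 (edgeR adjusted p = 0.736). The last value rested on 1 library and was 0.53 without naive library 1. The gene, at chr9:7344381-7369499 on the plus strand, shares exon sequence with Mmp1b on the other strand, which had 0 counts in all 6 libraries. Over the 6 libraries log2 CPM of Mmp12 and Mmp13 had a Pearson r of 0.954, and Mmp2 had 0.912 with Mmp12 and 0.915 with Mmp13, as a description. Mmp8, their neighbor on chromosome 9, had -0.824 with Mmp12 and -0.738 with Mmp13.

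Mmp14, the membrane-type protease that activates proMmp2, varied widely between libraries of a group. Its level was 447 and 83.5 CPM not in contact, 244 and 25.8 CPM in contact and 34.2 and 13.9 CPM in naive libraries. In-contact libraries differed 9.46-fold from each other and overlapped with both other groups, while both not-in-contact libraries were above both naive libraries. Not in contact against naive, the difference was 3.62 ± 1.28 on the log2 scale, or 12.3-fold (edgeR adjusted p = 0.281; DESeq2 adjusted p = 0.0135). In contact against naive it was 2.61 ± 1.23 (edgeR adjusted p = 0.387; DESeq2 adjusted p = 0.117). In contact against not in contact it was -1.01 ± 1.17 (edgeR adjusted p = 0.703), and 0.74 without not-in-contact library 1. Osteoclast markers were highest in the 2 libraries with the most Mmp14, at 1437 CPM in not-in-contact library 1 and 721 CPM in in-contact library 1, but Ctsk was at 47.8 CPM in the first and 0.202 CPM in the other. The part of osteoclast RNA in these levels was not tested.

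Mmp19, a secreted protease of basement membrane proteins, was low in all macrophages. It was at 4.86 and 10.8 CPM not in contact, 6.76 and 3.29 CPM in naive and 2.09 and 0.949 CPM in in-contact libraries. Both in-contact libraries were below the other 4, among which not-in-contact and naive libraries overlapped. The difference in contact against not in contact was -2.34 ± 0.70 on the log2 scale (edgeR adjusted p = 0.206; DESeq2 adjusted p = 0.0163). In contact against naive it was -1.58 ± 0.68 (edgeR adjusted p = 0.360; DESeq2 adjusted p = 0.163), and not in contact against naive 0.76 ± 0.67 (edgeR adjusted p = 0.656). The gene shares exon sequence with Gm47093 and Tmem198b on the other strand. The library kit does not mark strand, and Tmem198b was at 4.65 to 11.0 CPM, so the level of Mmp19 is uncertain by the reads they share.

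Among the inhibitors, Timp2, which blocks many metalloproteases and takes part in activating proMmp2, was the abundant one. It was at 754 and 480 CPM in naive, 1098 and 465 CPM in not-in-contact and 196 and 119 CPM in in-contact libraries. Both in-contact libraries were below the other 4, and naive and not-in-contact libraries overlapped. Timp2 was 4.97-fold lower in contact than not in contact (log2 -2.31 ± 0.56, edgeR adjusted p = 0.185; DESeq2 adjusted p = 6.52e-04). Against naive, the level in contact was 3.53-fold lower (log2 -1.82 ± 0.55, edgeR adjusted p = 0.247; DESeq2 adjusted p = 0.0106). Not in contact against naive, the difference was 0.49 ± 0.53 (edgeR adjusted p = 0.724), and -0.34 without not-in-contact library 1. Timp2 lies at chr11:118301069-118355740 on the minus strand. The macrophage marker sum over 10 genes, all detected, was also lowest in contact, at 4570 and 6029 CPM against 8904 to 17966 CPM elsewhere. Vcam1 weighed heavily in this sum, at 260 and 153 CPM in contact and 4335 to 8636 CPM in the other 4 libraries. Csf1r (2396 and 4368 CPM in contact), Cd68 (579 and 780 CPM) and Fcgr1 (157 and 44.7 CPM) overlapped with the other libraries. The remaining markers of the list were lower in contact. The part of the macrophage share in the level of Timp2 was not tested.

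Timp3, an inhibitor that is bound to the matrix and also blocks ADAM proteases, was low in naive macrophages and had the largest difference of the 9 genes. It was at 0.640 and 0.381 CPM in naive, 10.4 and 29.1 CPM in not-in-contact and 1.71 and 1.04 CPM in in-contact libraries. The 3 groups did not overlap. Not in contact against naive, the difference was 5.37 ± 0.73 on the log2 scale, or 41.4-fold (edgeR adjusted p = 0.219; DESeq2 adjusted p = 2.34e-11). In contact against not in contact, it was -3.81 ± 0.67, or 14.1-fold lower (edgeR adjusted p = 0.133; DESeq2 adjusted p = 1.27e-06). In contact against naive, it was 1.56 ± 0.64 (edgeR adjusted p = 0.341; DESeq2 adjusted p = 0.195). The naive values rest on 30 and 11 counts. Timp3 shares exon sequence with Syn3 on the other strand, which was at 0.145 to 1.13 CPM, so low values of Timp3 are uncertain by shared reads. Stromal and plasma cell transcripts were highest in not-in-contact library 2, the library with the most Timp3, and their part in Timp3 was not tested.

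Timp1, a soluble inhibitor best known for its induction by inflammation, was hardly detected. It had 0 and 0 counts in naive, 1 and 5 counts in not-in-contact and 0 and 3 counts in in-contact libraries. A count of 0 allows up to 0.0640 and 0.104 CPM in the naive libraries and 0.0674 CPM in in-contact library 1, so no fold is given. Not-in-contact library 2 was highest, at 0.161 CPM. Timp1 lies at chrX:20870166-20874735 on the plus strand inside Syn1, with which it shares no exon. Syn1, which encodes a synaptic vesicle protein, had 16.7 and 13.1 CPM in naive, 17.3 and 10.4 CPM in not-in-contact and 0.787 and 0.641 CPM in in-contact libraries. How reads in this region were assigned was not tested.

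**Figure D4:**
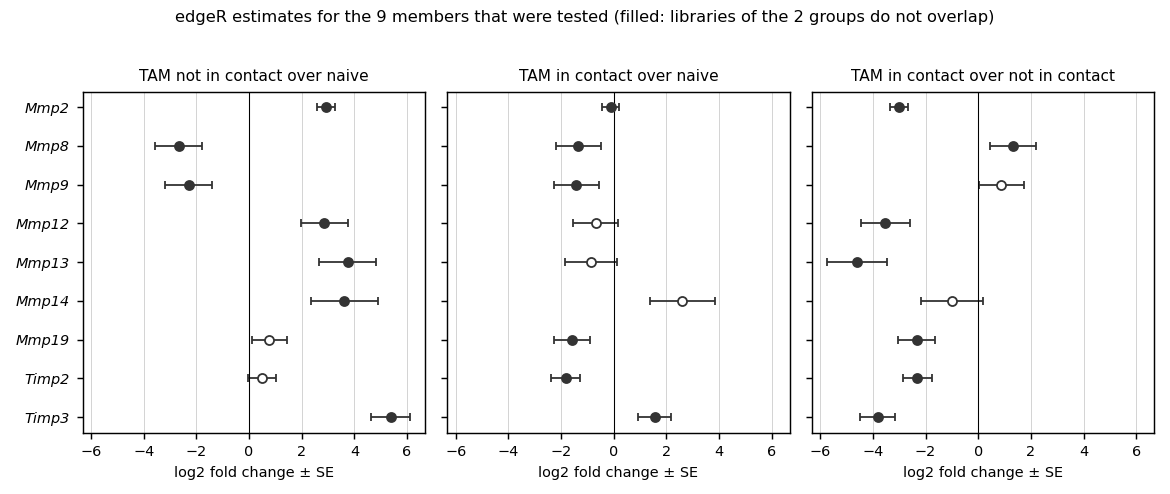
Log2 fold change from edgeR with a standard error derived from the test's F statistic (x axis) for the 9 genes tested (y axis). There are 3 comparisons of 2 against 2 libraries, and filled points mark genes whose groups do not overlap in CPM. Not in contact against naive, Timp3 has the largest value at 5.37 and Mmp8 the lowest at -2.67, and in contact against not in contact Mmp13 has the lowest at -4.61.

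Per length, Mmp8 and Mmp9 made up most metalloprotease RNA of these genes. Their share of the sum of the 7 proteases, in CPM per kilobase of exon, was 99.3 and 99.8% in naive, 44.1 and 95.6% in not-in-contact and 95.4 and 99.2% in in-contact libraries. In not-in-contact library 1, the one library under 95%, Mmp14 at 75.0 and Mmp13 at 39.9 CPM per kilobase stood beside Mmp9 at 56.0 and Mmp8 at 47.6. Timp2 made up 97.0% of the summed inhibitors in not-in-contact library 2 and over 99% in the other 5 macrophage libraries. The sum of the 7 proteases stood to that of the 3 inhibitors at 9.74 and 25.5 in naive, 0.829 and 6.14 in not-in-contact and 19.3 and 26.1 in in-contact libraries. Both not-in-contact libraries were below the other 4 in this ratio of levels, and naive and in-contact libraries overlapped. With Mmp8 and Mmp9 left out, the ratio was 0.0634 and 0.0498 in naive, 0.463 and 0.273 in not-in-contact and 0.886 and 0.202 in in-contact libraries. In that form the naive libraries were the lowest and the TAM groups overlapped, so the order of the groups depended on the 2 granule enzymes.

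**Figure D5:**
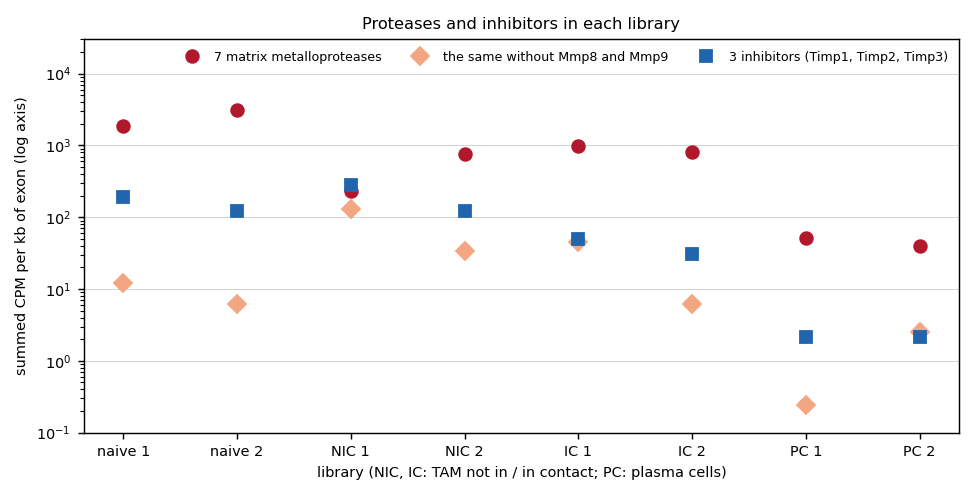
Summed level in CPM per kilobase of exon (y axis, log) of the 7 proteases (circles), of the same without Mmp8 and Mmp9 (diamonds) and of the 3 inhibitors (squares) in each of 8 libraries (x axis). The proteases exceed the inhibitors in all libraries but not-in-contact library 1, where their ratio is 0.829, and without Mmp8 and Mmp9 they lie below the inhibitors in all 6 macrophage libraries.

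Of 17 other genes of the family (16 metalloproteases and Timp4), 7 passed the filter, and 6 had 0 counts in all macrophage libraries: Mmp1a, Mmp1b, Mmp3, Mmp7, Mmp10 and Timp4. EdgeR called 0 of the 7 in each comparison (4, 3 and 3 at an unadjusted p under 0.05, in the order in contact against not in contact, in contact against naive, not in contact against naive), and DESeq2 called 1 higher and 1 lower in contact against not in contact, 3 lower in contact against naive and 1 lower not in contact against naive. Mmp27, a secreted family member, was at 17.5 and 7.75 CPM in naive, 13.6 and 16.9 CPM in not-in-contact and 0.899 and 1.19 CPM in in-contact libraries. It was lower in contact than not in contact by DESeq2 (adjusted p = 1.83e-09) and so against naive (adjusted p = 8.44e-08), with edgeR values of -3.84 ± 0.54 and -3.43 ± 0.54 (adjusted p = 0.102 and 0.0900). Like Timp2 and Mmp19, it had both in-contact libraries below the other 4. Mmp25, a membrane-anchored protease of neutrophils, was at 225 and 240 CPM in naive, 18.4 and 94.0 CPM not in contact and 58.9 and 39.0 CPM in contact, with both naive libraries above the TAM libraries as for Mmp8 and Mmp9. Mmp11 and Mmp15 stayed under 6 CPM in all 6 libraries. The median log2 fold change of the 7 was -0.87, -2.10 and -1.70 in the same order, beside 0.00, 0.00 and 0.06 over all genes.

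EdgeR called no gene of the other lists of the pathway in any comparison, and the counts of called genes that follow are from DESeq2. At an unadjusted p under 0.05 edgeR had, in the same order, 4, 0 and 2 of the activating proteases and their inhibitors, 1, 1 and 2 of the binding partners and 2, 0 and 1 of the ADAM and ADAMTS proteases. For matrix substrates these counts were 5, 4 and 7, and for the transcription factors 3, 5 and 9. Among proteases and inhibitors that act in activating metalloproteases, 10 of 13 were tested, with 3 lower in contact than not in contact and 0 called in contact against naive. Against naive, 1 was higher and 1 lower not in contact. Ctsg, a neutrophil granule protease, was the one lower not in contact, at 56.2 and 38.1 CPM against 97.3 and 283 CPM in naive libraries (adjusted p = 0.0313). Plat, a plasminogen activator and one of the 3 lower in contact, was at 6.60 CPM in not-in-contact library 2 and at 0.519 CPM or less in the other libraries (adjusted p = 0.0309). Furin, which cleaves the propeptide of Mmp14, was at 101 to 195 CPM in all 6 libraries and was not called. Among 11 binding partners and clearance receptors, 9 were tested and at most 1 was called in a comparison. Lcn2 was higher in contact than not in contact (adjusted p = 0.0227) and lower not in contact than in naive libraries (adjusted p = 0.00102). Itgb1, the integrin beta 1 chain, was at 367 and 284 CPM in naive and 697 and 1108 CPM in in-contact libraries (adjusted p = 0.0298). Itga3, an integrin alpha chain, was at 8.21 CPM in not-in-contact library 2 and 1.04 CPM or less elsewhere, and was not called. Reck, a membrane-anchored inhibitor of metalloproteases, was at 33.8 and 45.6 CPM in naive, 4.18 and 16.3 CPM in not-in-contact and 30.5 and 15.6 CPM in in-contact libraries, and passed no test. Among 16 ADAM and ADAMTS proteases, 10 were tested and 1 was called: Adam19 was lower not in contact, at 9.84 and 9.15 CPM, than in naive libraries, at 22.7 and 33.2 CPM (adjusted p = 0.00115). Adam9, Adam10 and Adam17, the last a sheddase of cytokines and receptors, were at 85.3 to 530 CPM in the 6 libraries and were not called.

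Of 15 matrix substrates, 14 were tested, with 5 lower in contact than not in contact, 3 higher not in contact than in naive, and 1 higher and 1 lower in contact against naive by DESeq2. Fn1, which encodes fibronectin, was at 36.1 and 50.4 CPM in naive, 278 and 136 CPM in not-in-contact and 207 and 320 CPM in in-contact libraries. It was higher than naive in both TAM groups (DESeq2 adjusted p = 1.21e-04 and 2.75e-06; edgeR adjusted p = 0.219 and 0.109). Spp1 (osteopontin) was at 37.5 and 47.7 CPM not in contact against 13.8 and 12.6 CPM in naive libraries (DESeq2 adjusted p = 9.82e-04), and Vcan, a proteoglycan, at 10.3 and 2.83 CPM against 0.384 and 1.18 CPM (DESeq2 adjusted p = 0.0125). Col1a2, a chain of type I collagen, was at 6.22 CPM or less in all 6 libraries and lower in contact than not in contact by DESeq2 (adjusted p = 4.95e-04). The list's median on the log2 scale was -3.34 in contact against not in contact, -0.38 in contact against naive and 2.54 not in contact against naive, beside 0.00, 0.00 and 0.06 over all genes. Many genes of the list were higher in not-in-contact library 2 than in library 1, so these medians rest in part on 1 library. Examples are Col1a1 (14.5 and 0.580 CPM), Lamc1 (101 and 8.05 CPM) and Dcn (13.6 and 0 CPM in libraries 2 and 1). Fn1, Vcan, Col18a1 and Hspg2 were higher in library 1. The collagen genes of this list also mark stromal cells, whose summed level was highest in not-in-contact library 2.

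All 12 AP-1, ETS and NF-kB factors of the list were tested. By DESeq2, 8 were higher and 1 lower not in contact than in naive, 4 were higher in contact than in naive, and 1 was higher and 1 lower in contact against not in contact. Fos, a subunit of AP-1, was at 50.6 and 61.4 CPM in naive, 903 and 4479 CPM in not-in-contact and 886 and 2387 CPM in in-contact libraries (DESeq2 adjusted p = 2.66e-10 and 2.07e-08 for the TAM groups against naive, edgeR adjusted p = 0.219 and 0.132). All 4 TAM libraries were above both naive libraries in Fos and Junb. Atf3, a stress-induced factor, was at 120 and 1331 CPM not in contact, 99.7 and 198 CPM in contact and 16.4 and 10.6 CPM in naive libraries. The lone factor called lower not in contact, Ets1, was at 66.2 and 94.9 CPM there and at 193 and 233 CPM in naive libraries (DESeq2 adjusted p = 0.00142). The median of the list on the log2 scale was -0.61 in contact against not in contact, 1.31 in contact against naive and 3.22 not in contact against naive, beside 0.00, 0.00 and 0.06 over all genes. All factors of the list but Nfkb1 were higher in not-in-contact library 2 than in library 1, so the medians with this group rest in part on 1 library. Jun was at 3030 and 222 CPM and Fosb at 565 and 4.06 CPM in libraries 2 and 1. Fosl2 was at 14.5 CPM in library 1, below both naive libraries at 34.0 and 33.2 CPM. The link between these factors and the metalloproteases was not tested.

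For each of the 9 genes the 2 other well-expressed genes with the highest Pearson r of log2 CPM over the 6 macrophage libraries were sought, as a description. This r compares the order and spacing of the libraries and not the level or the size of a change. Mmp8 was most like Dapk2 and Ceacam10 (Pearson r = 0.998 for each). Dapk2 was at 18.7 and 27.1 CPM in naive and 1.45 and 6.47 CPM in not-in-contact libraries, with both in-contact libraries between them. Mmp9 was most like Mctp2 (r = 0.998) and Lyst (r = 0.997), Mmp14 like Tmem67 (r = 0.995) and the interferon-induced chemokine Cxcl9 (r = 0.993). Cxcl9 was at 25.2 and 10.9 CPM in naive, 145 and 54.8 CPM in not-in-contact and 109 and 16.2 CPM in in-contact libraries, so that library 1 was the higher one in each group, as for Mmp14. Timp2 was most like Folr2, a folate receptor of resident macrophages (r = 0.997), and Aga (r = 0.994). Folr2 was at 28.0 and 14.2 CPM in naive, 56.1 and 17.2 CPM in not-in-contact and 3.73 and 1.92 CPM in in-contact libraries. Timp3 was most like Cd83 (r = 0.977) and Dusp28 (r = 0.975), and Mmp13 like Mtmr14 and Olfml3 (r = 0.981 for each). Mtmr14 stayed at 92.6 to 119 CPM in the 6 libraries, while Mmp13 ran from 0.949 to 107 CPM. For Mmp2 the genes were Tceal9 (r = 0.983) and Mrps28 (r = 0.975), for Mmp12 Rmi1 (r = 0.993) and Thap12 (r = 0.988), and for Mmp19 Cpped1 and Ipo11 (r = 0.996 for each).

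In the 2 plasma cell libraries, which come from a table of their own and are given without a test, most of the 10 genes were near 0. Mmp8 was at 65.7 and 59.5 CPM and Mmp9 at 83.6 and 45.9 CPM in libraries 1 and 2, beside neutrophil marker sums of 1274 and 1394 CPM. That is 51.6 and 42.7 CPM of Mmp8 and 65.6 and 32.9 CPM of Mmp9 per 1000 CPM of the markers. Timp2 was at 8.29 and 6.13 CPM, and Mmp14 had 49 and 23 counts. Mmp2, Mmp12, Mmp19 and Timp3 were at 0.261 CPM or less in both. The libraries differed in Mmp13, which had 3 counts (0.0367 CPM) in library 1 and 236 counts (6.15 CPM) in library 2, the latter close to the naive macrophages at 7.30 and 3.18 CPM. Library 2 also held the matrix protein gene Spp1 at 83.0 CPM against 0.636 CPM in library 1, and Timp1 at 18 counts against 0. The macrophage marker sums were 102 and 103 CPM. The sums of stromal and osteoblast markers were 37.6 and 43.0 CPM, of which Alpl alone made up 36.4 and 40.9 CPM. Dcn was at 0.0122 and 0.496 CPM and Col1a2 at 0.0978 and 0.469 CPM, both higher in library 2, and Cxcl12 was at 0.795 and 0.626 CPM. The osteoclast marker sums were 49.3 and 59.6 CPM. Within them Acp5 was higher in library 2 (13.8 and 47.7 CPM), while Nfatc1 (35.2 and 11.8 CPM) and Ctsk (0.0367 and 0 CPM) were lower. The part of such cells in Mmp13 was not tested. Which of these libraries is myeloma cannot be told from the labels.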

How the data were processed

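RNA of 6 macrophage and 2 plasma cell samples was sequenced after SMART-Seq v4 low-input preparation, as the labels' protocols state; this chemistry keeps no strand information. The deposited values are whole-number counts per gene in 2 tables. STAR, featureCounts, DESeq2 1.26, mm10 and GRCm38 are listed in the submitters' processing notes without a role; not given in the sources used here are the annotation and how reads in several genes or places were counted. Every column was matched to a sample by its label, with 0 left over.

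Macrophage identifiers were matched to GENCODE M21 (GRCm38) without their version (47224 of 47643), and plasma cell genes by symbol. CPM is relative to the library total, and CPM per kilobase uses the summed exon length. One edgeR 4.0.16 quasi-likelihood model (R 4.3.3) had group as its term and took in the 6 macrophage libraries, scaled by TMM and filtered by filterByExpr (minimum count 10, total 15), with 15522 genes kept and 3 degrees of freedom for the residuals. P-values were Benjamini-Hochberg adjusted over all genes and called under 0.05. The edgeR test gives no standard error, so it was taken as the absolute log2 fold change divided by the square root of the F statistic. DESeq2 1.42.0 and limma 3.58.1 (voom) were alternatives; other steps ran in Python 3.11.15. The fits were also run on simulated counts. The simulation gave every gene the same dispersion and held no outlying library, so it does not cover the spread between the libraries here.

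The genes, lists and rules were chosen with earlier results of these data known. Named were all 10 genes, up to 4 genes per pathway list with the smallest unadjusted p and a mean of at least 1 CPM, and 2 most similar genes per gene (mean log2 CPM of 3 or more, prior count 2). Syn1, Syn3, Tmem198b, Calcr, Ctsk and Acp5 were added for position or as markers, and Xist and Ddx3y as a check of labels; 1 gene that the rule names is not reported here. TAM libraries of the same mouse number were not treated as paired, since those of mouse 2 differ in sex-linked genes.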

Additional observations from a re-analysis of the deposited data

How the results depend on the processing

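Results are given for TAM in contact against not in contact, in contact against naive, and not in contact against naive, in that order. EdgeR called 0, 34 and 0 genes and 0, 0 and 0 of the 9 genes studied. DESeq2 called 1618, 1229 and 1269 genes and 6, 1 and 7 of the 9. Without the filter on low counts edgeR called 1871, 1437 and 1548 genes and 6, 2 and 7 of 10. RLE size factors gave 22 genes in contact against naive, limma-voom 0 there (2257 at an unadjusted p under 0.05), and bias-adjusted quasi-dispersions 22 and 56 in the first 2 comparisons. With the mouse number as a replicate block edgeR called 59, 187 and 0 genes, and Mmp2 and Mmp13 lower in contact than not in contact (2 of 9, adjusted p = 0.0446 for each), with 0 of 9 in the other comparisons. Same-numbered TAM libraries deviated from their group means with a Pearson r of 0.182 over 8888 genes, but those of mouse 2 differ in sex-linked genes, so the numbers were not taken as pairs. Leaving out 1 library at a time gave 0 to 1510, 0 to 534 and 0 to 477 genes, and 0 to 2, 0 to 0 and 0 to 4 of the 9. The highest counts came without not-in-contact library 1, and for the last, 4 of 9, without not-in-contact library 2; the cause was not tested. Over 351 alternative values of the 27 fold changes, 309 kept direction and side of the threshold, 39 passed it and 3 turned. No value could lose the threshold, since the main fit called 0 of the 9 genes. Without not-in-contact library 1, Mmp14 turned to 0.74 in contact against not in contact and Timp2 to -0.34 not in contact against naive. Without naive library 1, Mmp12 turned to 0.53 in contact against naive. Over the fits that left out 1 library these 3 values ran from -3.32 to 0.74, from -0.34 to 0.99 and from -1.31 to 0.53. Of 120 rescaled CPM values, 117 moved by less than the spread of their group. With 2 libraries a group and 3 residual degrees of freedom, a missed threshold does not show equal levels, and counts of Timp1 limit it to presence near the detection limit.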
